A study of Sus scrofa with 17 samples.

Results

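The genes described are all genes of the mitochondrial chromosome, chosen as every gene of the count table whose chromosome is given as MT: 37 of 31908 genes. They comprise 13 protein genes, 2 rRNA genes and 22 tRNA genes, lie between MT 1176 and MT 16613 of the assembly Sscrofa11.1, and 9 of them, ND6 and 8 tRNA genes, are on the minus strand. Mitochondria carry a small circular chromosome of their own, which is transcribed from both strands into long RNAs that are then split into rRNAs, tRNAs and mRNAs. Its protein genes encode core subunits of complexes I, III, IV and V of oxidative phosphorylation, and its rRNAs and tRNAs serve the translation of those subunits inside the organelle. The remaining subunits, the proteins of the mitochondrial ribosome and the enzymes that copy, transcribe and process this DNA come from nuclear genes, and skeletal muscle, above all its slow oxidative fibres, is rich in mitochondria.

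The libraries came from the longissimus muscle of male weaned piglets, Large White crossed with Duroc, that were 28 days old when they entered the trial. The feeding trial ran for 2 weeks after 5 adaptation days, with pair-feeding and a separate metabolic cage for each animal. The control diet was built on wheat, maize and soybean meal (6 libraries, 21 to 26). In the UL diet the green seaweed Ulva lactuca took up 7% of the feed in place of part of the control diet (6 libraries, 27 to 32). The ULU diet was the UL diet with 0.01% of an ulvan lyase, an enzyme that cleaves ulvan, the main cell wall polysaccharide of this seaweed (5 libraries, 40 to 44, although the methods name 6 piglets per diet). UL against control addresses the seaweed, ULU against control the seaweed with the enzyme, and ULU against UL the enzyme.

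Reads sequenced at 75 bases had been counted per gene without regard to strand. The control libraries 21 to 26 held 16653302, 17481275, 16335304, 16999499, 23433672 and 17773850 counted reads. The UL libraries 27 to 32 held 18610521, 18186462, 20896796, 20395336, 17722164 and 16470286 counted reads. The ULU libraries 40 to 44 held 24775501, 16137365, 22320520, 26546810 and 20706916 counted reads. Levels are given on 2 scales, as a share of all counted reads of a library and as CPM, counts divided by a library size and brought to one common size, scaled with TMM, a method that sets library sizes so that most genes match between libraries. At this depth the 95% Wilson interval of a library's mitochondrial share reached at most 0.0171 percentage points to either side, and intervals and floors cover counting error only, since reads copied by PCR carry no molecular identifiers. With library size alone the median log2(fold change) of all 14203 genes tested was -0.21 in ULU against control, -0.13 in ULU against UL and -0.08 in UL against control. With TMM it was -0.03, -0.02 and -0.0027 in the same order.

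Some libraries stood apart in single mitochondrial genes. ATP8 had 11 reads in UL 27 and 10 in ULU 40, against 14026 or more in each of the other 15 libraries. The tRNA genes ENSSSCG00000018062 and ENSSSCG00000018073 had 0 reads in these same libraries, where a floor of 3 reads corresponds to 0.154 CPM in UL 27 and 0.131 CPM in ULU 40. COX1 had 474578 reads in control 24, 4.42 times the control median in TMM CPM, and 287307 reads in control 25, the next highest. The tRNA gene ENSSSCG00000018076, which lies beside COX1 on the other strand, stood at 9.15 times its diet's median in control 24, 4.32 times in control 25 and 6.16 times in ULU 40. In control 25, ENSSSCG00000018073 was at 3.19 times its diet's median.

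UL 27 and ULU 40 also differed from the rest in how their protein gene reads were spread over the chromosome. ND2 took 4.84% of protein gene reads in UL 27 and 3.73% in ULU 40, below the range of 4.96% to 6.70% of the other 15 libraries. ND4 took 20.8% in UL 27 and 22.1% in ULU 40, above the range of 12.1% to 17.5% elsewhere. ND6 was low in UL 27 alone, at 0.703% against 1.08% to 1.66%, and ND1 in ULU 40 alone, at 2.96% against 3.61% to 5.33%, in each case set against those 15 libraries. ATP6 was high in ULU 40 alone, at 15.03% against 10.9% to 13.9%. COX1 took 23.4% of protein gene reads in control 24 and 9.30% in control 25, above the 3.53% to 7.99% of the libraries other than these. Over the 11 protein genes other than COX1 and ATP8, the root mean square distance from the median composition, on the log2 scale, was 0.350 in UL 27, 0.342 in ULU 40 and 0.300 in control 24, and 0.0607 to 0.243 in the other 14. These shares keep COX1 in the total, so its 23.4% in control 24 lowers every other share there. All 11 genes stood below the median in control 24, at 0.761 (ND3) to 0.917 (ND5) times it. The value of 0.300 therefore shows no departure of control 24 apart from COX1. The cause of these patterns was not tested.

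**Figure D1:**
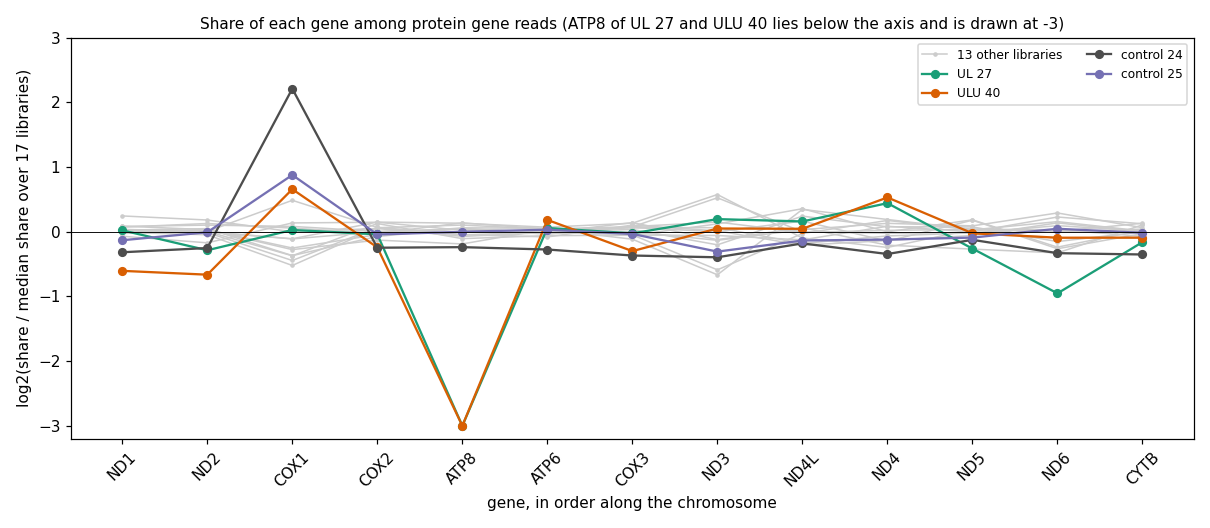
Share of each protein gene among the protein gene reads of a library, as log2 of its ratio to the median over 17 libraries, with genes in order along the chromosome and 1 line per library. UL 27 and ULU 40 fall far below the others at ATP8 (drawn at the lower edge) and lie above them at ND4, and control 24 is the highest at COX1.

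All 37 genes together took 14.8% ± 0.697 (SD, n = 6) of counted reads in control, with lowest 14.05, median 14.6, highest 15.9. The corresponding UL share for all 37 genes together was 11.6% ± 2.11 (SD, n = 6), with lowest 8.64, median 11.4, highest 14.8. In ULU, all 37 genes together took 8.002, 9.54, 10.7, 11.6 and 11.2% in libraries 40 to 44, or 10.2% ± 1.47 (SD, n = 5). Every ULU library lay below the lowest control library, control 23, and 5 of 6 UL libraries did, the exception being UL 32, while UL and ULU overlapped. The mean share differed from control by -21.3% in UL and by -30.8% in ULU, and that of ULU from UL by -12.1%, all given as descriptions without a test. Without UL 27 and ULU 40 the means were 12.2% in UL and 10.8% in ULU, and without control 24 and 25 the control mean was 14.6%, with all 5 ULU libraries still below every control left. A share of counted reads also falls when reads of other genes rise. In bulk RNA, fewer mitochondria-rich cells, less mitochondrial RNA per cell and more RNA of other genes cannot be told apart by such shares.

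The 13 protein genes took 11.7% ± 0.955 (SD, n = 6) of counted reads in control, with lowest 10.2, median 11.6, highest 13.2. The corresponding UL share for the 13 protein genes was 8.50% ± 1.07 (SD, n = 6), with lowest 6.94, median 8.43, highest 10.05. In ULU, the 13 protein genes took 6.84, 7.65, 8.52, 9.65 and 9.51% in libraries 40 to 44, or 8.43% ± 1.20 (SD, n = 5). Neither UL nor ULU overlapped with control in the protein gene share, and both seaweed diets covered nearly the same range. With COX1 and ATP8 set aside, the mean shares were 10.5%, 7.98% and 7.95%, with SD 1.056, 0.975 and 1.20. The diets then overlapped, since 5 of 6 UL and 4 of 5 ULU libraries lay below the lowest control, control 24.

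The 2 rRNAs took 3.11% ± 0.610 (SD, n = 6) of counted reads in control, with lowest 2.32, median 3.03, highest 3.82. The corresponding UL share for the 2 rRNAs was 3.12% ± 1.05 (SD, n = 6), with lowest 1.70, median 2.96, highest 4.71. In ULU, the 2 rRNAs took 1.15, 1.89, 2.17, 1.99 and 1.71% in libraries 40 to 44, or 1.78% ± 0.390 (SD, n = 5). The rRNA share of every ULU library was below that of every control library, whereas control and UL had similar means, and the UL range was the wider, with UL 27 below and UL 28 and 32 above all controls. For the 22 tRNA genes the shares were 0.00282% in control, 0.00251% in UL and 0.00209% in ULU on average, with overlap throughout.

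**Figure D2:**
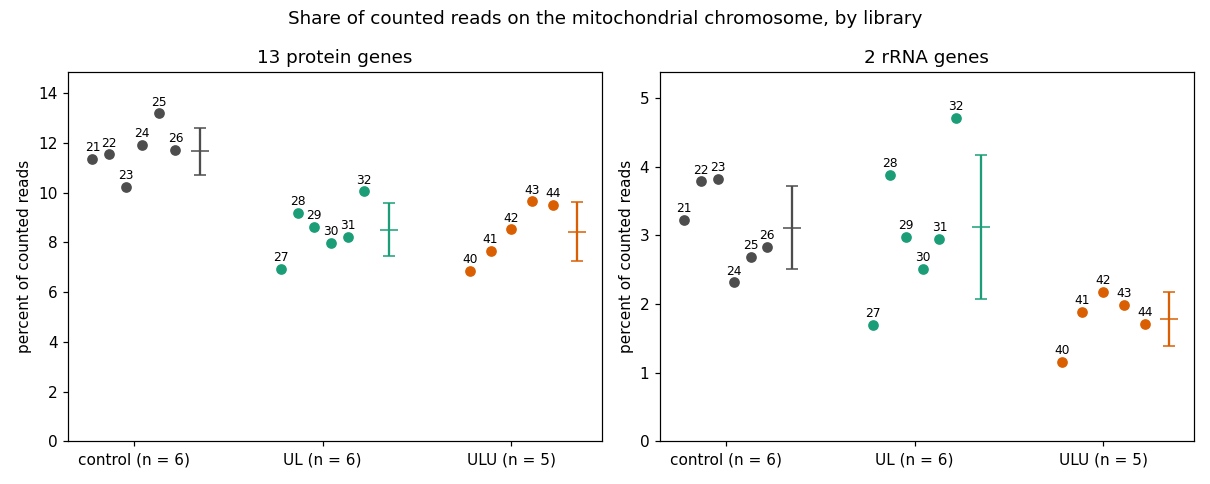
Percent of counted reads on the 13 protein genes and on the 2 rRNA genes of the mitochondrial chromosome, with 1 numbered point per library and the diet mean and SD beside them. ULU libraries lie below all control libraries in both panels, and UL libraries do so for the protein genes.

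On the TMM scale the diets overlapped in all of these sums. All 37 genes summed to 140568 ± 17309.8 TMM CPM (SD, n = 6) in control, with lowest 123666, median 135555, highest 167698. In UL the 37 genes summed to 116706 ± 26858 TMM CPM (SD, n = 6), with lowest 82796, median 110274, highest 157916. In ULU the 37 genes summed to 86601, 99976, 103469, 152369 and 113033 TMM CPM in libraries 40 to 44, or 111090.0 ± 24945 TMM CPM (SD, n = 5). Of the UL libraries 4 of 6, and of the ULU libraries 4 of 5, were below the lowest control on this scale, the exception in ULU being ULU 43, whose TMM factor of 0.765 was the lowest of the 17. TMM factors were 0.944 to 1.21 in control, 0.936 to 1.08 in UL and 0.765 to 1.04 in ULU. A low factor raises values on this scale, so high ranks of ULU 43 given below in TMM CPM carry it.

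The balance between the kinds, which no scaling of whole libraries alters, varied as well. Control libraries had 27.1 ± 7.10 (SD, n = 6) rRNA reads per 100 protein gene reads, with lowest 19.5, median 26.3, highest 37.4. UL libraries had 35.9 ± 7.91 (SD, n = 6) rRNA reads per 100 protein gene reads, with lowest 24.5, median 35.2, highest 46.9. In ULU 40 to 44 there were 16.9, 24.7, 25.5, 20.6 and 18.03 rRNA reads per 100 protein gene reads, or 21.1 ± 3.87 (SD, n = 5). ULU overlapped with both other diets in this ratio, with control 24, 25 and 26 and UL 27 lying within its range.

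The rRNAs form the core of the mitochondrial ribosome, the shorter in its small subunit and the longer in its large subunit. The shorter rRNA is ENSSSCG00000018061 (MT 1246 to 2205, plus strand). In control, the shorter rRNA had 2421 ± 1002 TMM CPM (SD, n = 6), with lowest 1312, median 2297, highest 4211. In UL, the shorter rRNA had 2895 ± 1340.2 TMM CPM (SD, n = 6), with lowest 1928, median 2436, highest 5452. The shorter rRNA stood at 865, 1361, 1588, 1867 and 1042 TMM CPM in ULU libraries 40 to 44, in that order, and at 1345 ± 404 TMM CPM (SD, n = 5) on average. UL 32 was far above the other UL libraries, control 21 was the highest control, and all 5 ULU libraries lay below the lowest UL library, UL 29, while ULU and control overlapped. For the shorter rRNA, ULU against UL gave log2(fold change) -1.11, SE 0.30, edgeR adjusted p = 0.201, below the UL median in 5 of 5 ULU libraries. Against control it had, in ULU, log2(fold change) -0.85, SE 0.30, edgeR adjusted p = 0.122, below the control median in 5 of 5 ULU libraries. In UL against control the value was log2(fold change) 0.26, SE 0.28, edgeR adjusted p = 0.795, above the control median in 3 of 6 UL libraries, and without UL 32 it was -0.02. The edgeR values come from its quasi-likelihood test with Benjamini-Hochberg adjustment over 14203 genes, and a gene was called at an adjusted p under 0.05. None of these differences was called by edgeR, while DESeq2 on all 17 libraries called the shorter rRNA in ULU against UL, at log2(fold change) -1.09, and in ULU against control, at -0.84.

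The longer rRNA, ENSSSCG00000018063 (MT 2274 to 3844, plus strand), had the most reads of the 37 genes, at 473321 per library on average. The level of the longer rRNA was 27117 ± 5514 TMM CPM (SD, n = 6) in control, with lowest 19737, median 27510.0, highest 35206. For the longer rRNA the UL level was 28634 ± 11007 TMM CPM (SD, n = 6), with lowest 14316, median 26381, highest 44952. The longer rRNA was at 11626, 18427, 19434, 24191 and 16227 TMM CPM in ULU 40 to 44, and at 17981 ± 4592 TMM CPM (SD, n = 5) over the 5 libraries. UL spread widest, from UL 27 to UL 32, and ULU 43 was the only ULU library above the control minimum. For the longer rRNA, ULU against control gave log2(fold change) -0.59, SE 0.25, edgeR adjusted p = 0.198, below the control median in 5 of 5 ULU libraries. Against UL it had, in ULU, log2(fold change) -0.67, SE 0.25, edgeR adjusted p = 0.339, below the UL median in 5 of 5 ULU libraries. For the longer rRNA, UL against control gave log2(fold change) 0.08, SE 0.23, edgeR adjusted p = 0.939, above the control median in 2 of 6 UL libraries. With library size alone the last value was -0.01, without UL 28 it was -0.01, and without UL 32 it was -0.10. In raw CPM, which is scaled by library size alone, every ULU library was below every control library for the longer rRNA.

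For each 100 reads of the longer rRNA there were 8.84 ± 2.85, 10.2 ± 2.29 and 7.43 ± 0.642 (control, UL and ULU, mean ± SD, n = 6, 6 and 5) reads of the shorter. Control 21 was the highest at 14.1 and control 26 the lowest at 5.76, so that control spanned the other diets.

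Complex I, which passes electrons from NADH to ubiquinone, has core membrane subunits encoded here, ND1 to ND6 and ND4L. ND1 lies next to the ubiquinone site of the complex (ENSSSCG00000018065, MT 3922 to 4876, plus strand). Control libraries held ND1 at 4879.7 ± 959 TMM CPM (SD, n = 6), with lowest 3986, median 4410.1, highest 6416. UL libraries held ND1 at 3895 ± 627 TMM CPM (SD, n = 6), with lowest 3037, median 3794, highest 4831. ND1 in ULU 40 to 44 was at 2190.3, 3666, 3742, 5569 and 4575 TMM CPM, or 3949 ± 1248 TMM CPM (SD, n = 5). Control 21 and 25 were highest in control, UL 27 and ULU 40 lowest in their diets, and the 3 diets overlapped in ND1. ND2 is an antiporter-like subunit of the proton-pumping arm (ENSSSCG00000018069, MT 5087 to 6128, plus strand). In control, ND2 had 6416 ± 1332 TMM CPM (SD, n = 6), with lowest 5309.7, median 5734, highest 8176. In UL, ND2 had 5019.6 ± 1071 TMM CPM (SD, n = 6), with lowest 3222, median 5116, highest 6345. ND2 stood at 2761, 4896, 4862, 7619 and 5782 TMM CPM in ULU libraries 40 to 44, in that order, and at 5184 ± 1757 TMM CPM (SD, n = 5) on average. The order was much like that of ND1, with control 25 and 21 and ULU 43 high, UL 27 and ULU 40 low, and overlap between all diets.

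ND3 is a small subunit at the joint of the arms of complex I (ENSSSCG00000018084, MT 10653 to 10998, plus strand). The level of ND3 was 1507 ± 181 TMM CPM (SD, n = 6) in control, with lowest 1269, median 1546, highest 1700.4. For ND3 the UL level was 1569 ± 477 TMM CPM (SD, n = 6), with lowest 1151, median 1409.9, highest 2420.1. ND3 was at 1159, 1105, 1196, 1203 and 962 TMM CPM in ULU 40 to 44, and at 1125 ± 99.1 TMM CPM (SD, n = 5) over the 5 libraries. All 5 ULU libraries lay below the lowest control, control 24, whereas UL ran from below the controls in UL 27 and UL 30 to above them in UL 31 and UL 32. For ND3, ULU against control gave log2(fold change) -0.42, SE 0.16, edgeR adjusted p = 0.164, below the control median in 5 of 5 ULU libraries. For ND3, ULU against UL gave log2(fold change) -0.48, SE 0.16, edgeR adjusted p = 0.300, below the UL median in 5 of 5 ULU libraries. Set against CYTB, ND3 had 11.5 ± 1.24, 15.4 ± 3.10 and 10.1 ± 2.55 (control, UL and ULU, mean ± SD, n = 6, 6 and 5) reads per 100 CYTB reads, and in ULU library 43 was the lowest at 7.07 and ULU 40 the highest at 13.5, so that ULU overlapped with both other diets.

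ND4L, a small membrane subunit of complex I, shares its last bases with the start of ND4 (ENSSSCG00000018086, MT 11069 to 11365, plus strand). Control libraries held ND4L at 4326 ± 399.7 TMM CPM (SD, n = 6), with lowest 3600.3, median 4422, highest 4682. UL libraries held ND4L at 3011 ± 406 TMM CPM (SD, n = 6), with lowest 2513, median 3001, highest 3713. ND4L in ULU 40 to 44 was at 2823, 3029, 2791, 5928 and 3469.6 TMM CPM, or 3608 ± 1325 TMM CPM (SD, n = 5). UL 32 was the only UL library above the lowest control, control 24, and ULU 43 stood above all other libraries while the other 4 ULU libraries were below every control. That rank of ULU 43 holds on the TMM scale only, since in raw CPM it was below control 22 and 26. For ND4L, UL against control gave log2(fold change) -0.52, SE 0.16, edgeR adjusted p = 0.250, below the control median in 6 of 6 UL libraries. For ND4L, ULU against control gave log2(fold change) -0.26, SE 0.17, edgeR adjusted p = 0.441, below the control median in 4 of 5 ULU libraries. In raw CPM every UL library was below every control library for ND4L, and DESeq2 fitted on these 2 diets called it, at log2(fold change) -0.52, while DESeq2 on all libraries did not.

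ND4 is an antiporter-like subunit of the proton-pumping arm (ENSSSCG00000018087, MT 11359 to 12736, plus strand). In control, ND4 had 15588 ± 2245 TMM CPM (SD, n = 6), with lowest 13317, median 15260.0, highest 19599.8. In UL, ND4 had 12906 ± 1018 TMM CPM (SD, n = 6), with lowest 11286, median 12971, highest 13909. ND4 stood at 16374, 13433, 13383, 22045 and 16545 TMM CPM in ULU libraries 40 to 44, in that order, and at 16356 ± 3528 TMM CPM (SD, n = 5) on average. UL 32 was the highest UL library and still below 5 of 6 controls, while ULU 43 was the highest of all libraries and the ULU range lay within and above that of control. In raw CPM, by contrast, ULU 43 was below control 22, 25 and 26, and the ULU range lay within and below that of control. For ND4, ULU against UL gave log2(fold change) 0.34, SE 0.14, edgeR adjusted p = 0.407, above the UL median in 5 of 5 ULU libraries. ND4 had 118 ± 10.8, 131 ± 29.4 and 142 ± 28.2 (control, UL and ULU, mean ± SD, n = 6, 6 and 5) reads per 100 CYTB reads, with UL 27 at 189 and ULU 40 at 191 above their diets' medians.

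ND5, the third antiporter-like subunit, has the longest protein gene of the chromosome (ENSSSCG00000018091, MT 12935 to 14755, plus strand). The level of ND5 was 7257 ± 758 TMM CPM (SD, n = 6) in control, with lowest 6599.6, median 7028, highest 8634. For ND5 the UL level was 5495 ± 1197 TMM CPM (SD, n = 6), with lowest 3665, median 5430.4, highest 7281. ND5 was at 4809.7, 5636, 5439.5, 8544 and 6450.1 TMM CPM in ULU 40 to 44, and at 6176 ± 1448 TMM CPM (SD, n = 5) over the 5 libraries. UL 27 was the lowest of all libraries, UL 32 and ULU 43 reached into the control range, and the other UL and ULU libraries were below every control. ND6 is the one protein gene on the minus strand and overlaps ND5 by 17 bases at its end (ENSSSCG00000018092, MT 14739 to 15266, minus strand). Control libraries held ND6 at 1321 ± 319 TMM CPM (SD, n = 6), with lowest 1098, median 1207, highest 1957. UL libraries held ND6 at 1113 ± 368 TMM CPM (SD, n = 6), with lowest 468, median 1106, highest 1495. ND6 in ULU 40 to 44 was at 945, 1334, 1314, 1724 and 1452 TMM CPM, or 1354 ± 281 TMM CPM (SD, n = 5). Control 25 stood above the other controls, UL 27 was far below the other UL libraries, and the diets overlapped. ND6 had 9.92 ± 1.27, 10.7 ± 2.16 and 11.6 ± 1.09 (control, UL and ULU, mean ± SD, n = 6, 6 and 5) reads per 100 CYTB reads, the UL value including 6.38 in UL 27. Counting took no account of strand, so that reads of ND6 and of antisense RNA of the same stretch cannot be told apart.

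Complex III, which hands electrons from ubiquinol to cytochrome c, has a single subunit encoded here. CYTB, the cytochrome b subunit, binds ubiquinol (ENSSSCG00000018094, MT 15342 to 16481, plus strand). In control, CYTB had 13318 ± 2510.5 TMM CPM (SD, n = 6), with lowest 10651, median 12228, highest 16938. In UL, CYTB had 10180.2 ± 1877 TMM CPM (SD, n = 6), with lowest 7325, median 9876, highest 12589. CYTB stood at 8556, 10304, 11048, 17026 and 11876 TMM CPM in ULU libraries 40 to 44, in that order, and at 11762 ± 3187 TMM CPM (SD, n = 5) on average. Control 25 and 21 and ULU 43 stood above the rest, UL 27 was lowest, and all diets overlapped.

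Complex IV, which reduces oxygen to water, takes its catalytic core from COX1, COX2 and COX3. COX1 carries the haem and copper centre at which oxygen is reduced (ENSSSCG00000018075, MT 6511 to 8055, plus strand). The level of COX1 was 9665 ± 8649 TMM CPM (SD, n = 6) in control, with lowest 3703, median 5862, highest 25893. For COX1 the UL level was 4442 ± 1409.8 TMM CPM (SD, n = 6), with lowest 2829, median 4249, highest 6851. COX1 was at 5914, 3143, 3863, 5278 and 4069.8 TMM CPM in ULU 40 to 44, and at 4454 ± 1121 TMM CPM (SD, n = 5) over the 5 libraries. Control 24 and 25 stood far above every other library, and the other 4 controls lay within the range of UL. For COX1, UL against control gave log2(fold change) -1.12, SE 0.39, edgeR adjusted p = 0.313, below the control median in 5 of 6 UL libraries. For COX1, ULU against control gave log2(fold change) -1.12, SE 0.42, edgeR adjusted p = 0.146, below the control median in 4 of 5 ULU libraries. The COX1 value between ULU and UL was log2(fold change) 0.0037, SE 0.41, edgeR adjusted p = 0.999, above the UL median in 2 of 5 ULU libraries. None of these values led to a call. Without control 24 and 25 the control mean was 4787 ± 1256 TMM CPM (SD, n = 4), and the log2(fold change) was -0.11 in UL and -0.10 in ULU against control. The size of the COX1 difference from control thus rested on control 24 and 25. With library size alone the COX1 value between ULU and UL was -0.10, and without UL 27, UL 29, UL 30, ULU 40 or ULU 43 it was -0.06, -0.10, -0.02, -0.12 and -0.06.

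COX2 takes up electrons from cytochrome c (ENSSSCG00000018078, MT 8203 to 8890, plus strand). Control libraries held COX2 at 14276 ± 1958 TMM CPM (SD, n = 6), with lowest 11838, median 13770.0, highest 17209. UL libraries held COX2 at 11193 ± 2468 TMM CPM (SD, n = 6), with lowest 8231, median 10621, highest 15168. COX2 in ULU 40 to 44 was at 7970.3, 9696, 10482, 14692 and 11818 TMM CPM, or 10932 ± 2521 TMM CPM (SD, n = 5). UL 27 and ULU 40 were lowest, UL 32 and ULU 43 reached the upper part of the control range, and the diets overlapped, although in raw CPM every ULU library was below every control. COX3 is the third core subunit, without a metal centre (ENSSSCG00000018082, MT 9800 to 10583, plus strand). In control, COX3 had 17076 ± 3289 TMM CPM (SD, n = 6), with lowest 13407, median 16294, highest 21308. In UL, COX3 had 14086 ± 2884 TMM CPM (SD, n = 6), with lowest 10238, median 13482, highest 18455. COX3 stood at 9429, 12552, 12465, 18261 and 14505 TMM CPM in ULU libraries 40 to 44, in that order, and at 13442 ± 3248 TMM CPM (SD, n = 5) on average. Control 25 and 21 were highest and ULU 40 lowest, with overlap in TMM CPM, and in raw CPM every ULU library again lay below every control.

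Complex V, the ATP synthase, has a pair of membrane subunits encoded here by overlapping genes. ATP6 forms the proton path of the synthase (ENSSSCG00000018081, MT 9120 to 9800, plus strand). The level of ATP6 was 14212 ± 2643 TMM CPM (SD, n = 6) in control, with lowest 12076, median 13239, highest 18842. For ATP6 the UL level was 11386 ± 1976 TMM CPM (SD, n = 6), with lowest 9168, median 10799.5, highest 14936. ATP6 was at 11132, 10463, 10906, 17189 and 13153 TMM CPM in ULU 40 to 44, and at 12568 ± 2782 TMM CPM (SD, n = 5) over the 5 libraries. Control 25 and ULU 43 stood above the rest and UL 27 was lowest, with overlap between all diets. ATP8 is a small subunit of the membrane part, and its gene shares its last bases with ATP6 (ENSSSCG00000018080, MT 8959 to 9162, plus strand). Control libraries held ATP8 at 1162 ± 205 TMM CPM (SD, n = 6), with lowest 969.7, median 1093, highest 1528. UL libraries held ATP8 at 856 ± 441 TMM CPM (SD, n = 6), with lowest 0.566, median 942, highest 1293. ATP8 in ULU 40 to 44 was at 0.437, 911, 932, 1217 and 1097 TMM CPM, or 831 ± 481 TMM CPM (SD, n = 5). UL 27 and ULU 40 had almost no reads, while the other 15 libraries ran from 911 to 1528 TMM CPM, with overlap between diets. For ATP8, UL against control gave log2(fold change) -0.44, SE 0.93, edgeR adjusted p = 0.907, below the control median in 5 of 6 UL libraries. For ATP8, ULU against control gave log2(fold change) -0.48, SE 0.98, edgeR adjusted p = 0.829, below the control median in 3 of 5 ULU libraries. The ATP8 value between ULU and UL was log2(fold change) -0.04, SE 0.97, edgeR adjusted p = 0.995, below the UL median in 3 of 5 ULU libraries. None of the ATP8 values led to a call.

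Without UL 27 and ULU 40, ATP8 was at 1027 ± 154 TMM CPM (SD, n = 5) in UL and 1039 ± 144 TMM CPM (SD, n = 4) in ULU. The log2(fold change) of ATP8 was then -0.18 in UL against control, -0.16 in ULU against control and 0.02 in ULU against UL. Between ULU and UL it was 0.02 without UL 28, 0.11 without UL 32 and 0.28 without ULU 40. For each 100 reads of ATP6 there were 7.96 to 8.51 reads of ATP8 in the 6 control libraries, 0.00618 in UL 27 and 0.00392 in ULU 40. Reads that also touch ATP6 or the tRNA gene on the other side were not counted, which leaves ATP8 with 31.7% of its read positions.

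**Figure D3:**
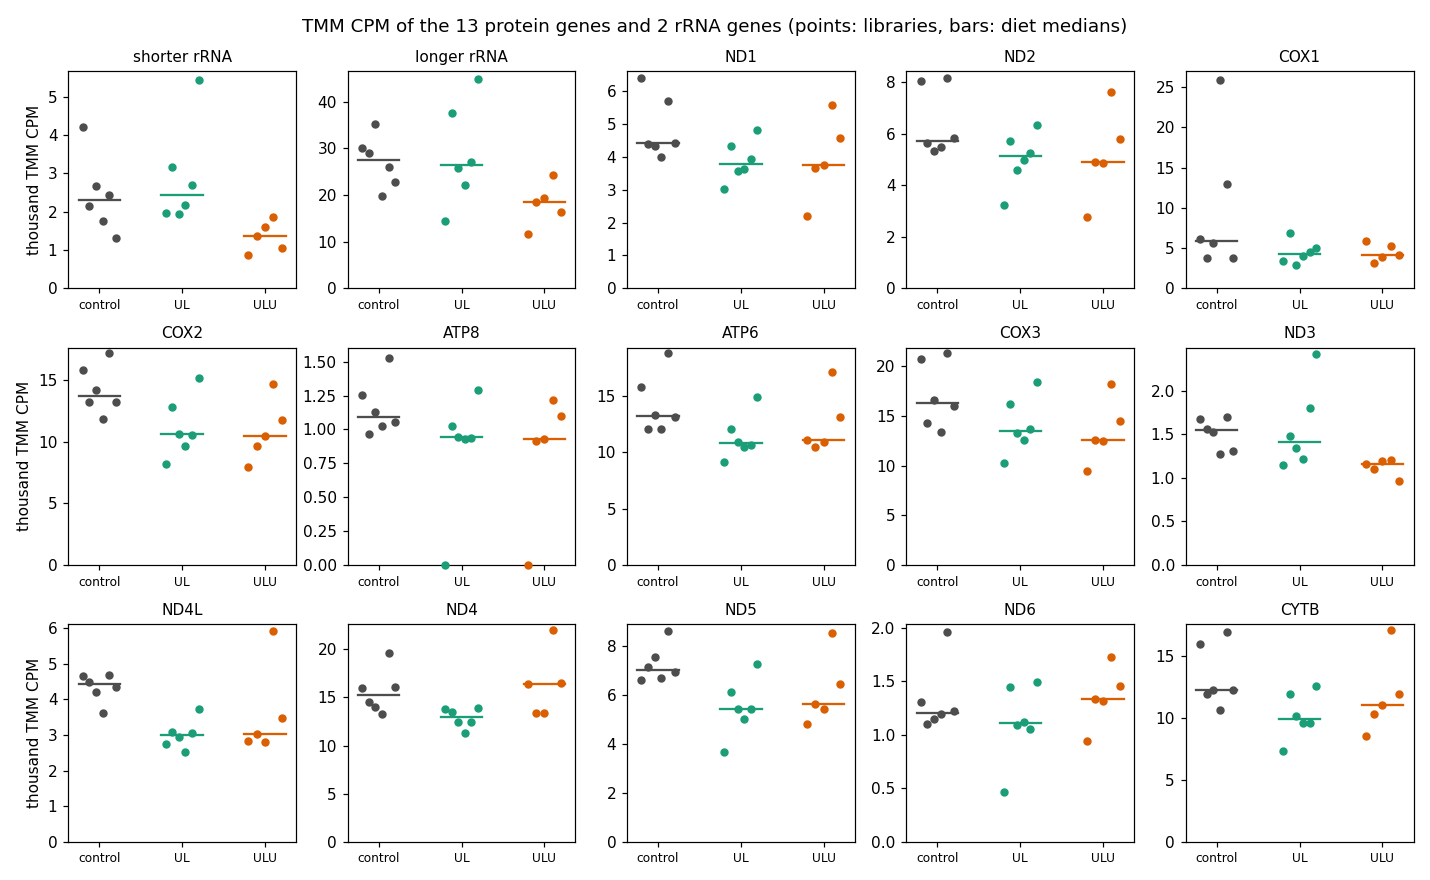
TMM CPM of the 13 protein genes and the 2 rRNA genes, with 1 point per library and a bar at the median of each diet. ND3 of all ULU libraries lies below control, the shorter rRNA of all ULU libraries below UL, and control 24 and 25 stand out in COX1.

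Levels of different genes were compared per length, as mean TMM CPM per kilobase over 17 libraries. The order from highest to lowest was COX3, ATP6, COX2, the longer rRNA, ND4L, ND4, CYTB, ND2, ATP8, ND1, ND3, COX1, ND5, ND6 and the shorter rRNA. COX3 had 19071 CPM per kilobase and the shorter rRNA 2366, next to ND6 with 2381. The longer rRNA had 15891 CPM per kilobase. Of the subunits of one complex, COX1 stood at 4070.5 CPM per kilobase, below COX2 at 17739 and COX3. Without control 24 COX1 was at 3277 CPM per kilobase, below ND5 at 3456, and the shorter rRNA passed ND6, while the order was otherwise the same. The order differed between diets. In control the first was COX3 at 21780.1 CPM per kilobase, and COX1 stood above ND2. In UL the longer rRNA was first at 18227 CPM per kilobase, next to COX3 at 17967. In ULU ATP6 at 18456 CPM per kilobase was above COX3 at 17146, and the longer rRNA at 11446 was below ND4L and ND4. Because reads that touch more than 1 gene were not counted, a gene loses reads at its ends. The share of 75-base positions that touch one gene alone was 31.7% for ATP8, the lowest of the protein genes, and 91.3% for ND5, the highest, so that levels of short genes are lowered on this scale. Per kilobase of positions that touch one gene alone, ATP6 was first at 22613 CPM and COX3 second at 21089 CPM, and ND4L stood above the longer rRNA, ATP8 above ND2 and ND3 above ND1. Reads placed at several sites, such as those that also match nuclear copies of this DNA, were not counted either.

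The 22 tRNA genes, whose products carry amino acids to the mitochondrial ribosome, are 59 to 75 bases long, no longer than a read, and most adjoin other genes. For 17 of the 22, at most 1 window of 75 bases touches no other gene. The counts did not follow these windows. ENSSSCG00000018062 had 0 such windows and 265 reads over all libraries, and ENSSSCG00000018060 had 70 windows and 16 reads. The cause was not tested. They drew 8290 reads over all 17 libraries, of which 92.3% fell on ENSSSCG00000018076 and ENSSSCG00000018093. No read was counted on 6 tRNA genes, 12 had 1 to 100 reads over all libraries, and 4 had more than 100 and passed the filter on low counts. These counts therefore say little about the amounts of mature tRNA.

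ENSSSCG00000018076 lies at MT 8059 to 8129, minus strand. In control, ENSSSCG00000018076 had 20.3 ± 25.9 TMM CPM (SD, n = 6), with lowest 2.45, median 7.46, highest 68.3. In UL, ENSSSCG00000018076 had 14.3 ± 7.13 TMM CPM (SD, n = 6), with lowest 5.87, median 14.5, highest 24.6. ENSSSCG00000018076 stood at 36.0, 5.85, 12.3, 5.82 and 3.99 TMM CPM in ULU libraries 40 to 44, in that order, and at 12.8 ± 13.3 TMM CPM (SD, n = 5) on average. Control 24, ULU 40 and control 25 were high, in that order, and the 3 diets otherwise overlapped. For ENSSSCG00000018076, UL against control gave log2(fold change) -0.51, SE 0.69, edgeR adjusted p = 0.839, below the control median in 1 of 6 UL libraries. For ENSSSCG00000018076, ULU against control gave log2(fold change) -0.66, SE 0.73, edgeR adjusted p = 0.664, below the control median in 3 of 5 ULU libraries. Between ULU and UL the ENSSSCG00000018076 value was log2(fold change) -0.15, SE 0.73, edgeR adjusted p = 0.967, below the UL median in 4 of 5 ULU libraries. None of these differences was called. Without control 24 and 25, ENSSSCG00000018076 was at 5.31 ± 2.88 TMM CPM (SD, n = 4) in control, with log2(fold change) 1.43 in UL and 1.29 in ULU against control. Its direction against control thus rests on those libraries, and without control 24 alone the values were 0.41 and 0.26. Between ULU and UL it was 0.08, 0.04, 0.04 and 0.08 without UL 31, ULU 41, ULU 43 and ULU 44. Leaving out UL 27 and ULU 40 gave -1.14 between ULU and UL and -1.53 in ULU against control, further from 0 than with all libraries. Without strand, reads of this tRNA and of plus-strand RNA that runs past COX1 cannot be told apart.

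ENSSSCG00000018093 lies at MT 15267 to 15335, minus strand. The level of ENSSSCG00000018093 was 4.94 ± 1.70 TMM CPM (SD, n = 6) in control, with lowest 3.76, median 4.49, highest 8.29. For ENSSSCG00000018093 the UL level was 8.86 ± 3.09 TMM CPM (SD, n = 6), with lowest 3.76, median 10.3, highest 11.8. ENSSSCG00000018093 was at 9.61, 9.81, 8.75, 6.998 and 4.67 TMM CPM in ULU 40 to 44, and at 7.97 ± 2.15 TMM CPM (SD, n = 5) over the 5 libraries. Control 25 was far above the other controls and UL 27 was the lowest UL library, while the other 5 UL libraries were above 5 of 6 controls. The log2(fold change) of ENSSSCG00000018093 was 0.84 in UL and 0.69 in ULU against control, and -0.15 in ULU against UL. ENSSSCG00000018062 lies at MT 2206 to 2273, plus strand. Control libraries held ENSSSCG00000018062 at 0.759 ± 0.360 TMM CPM (SD, n = 6), with lowest 0.382, median 0.689, highest 1.35. UL libraries held ENSSSCG00000018062 at 0.973 ± 0.744 TMM CPM (SD, n = 6), with lowest 0, median 0.981, highest 2.10. ENSSSCG00000018062 in ULU 40 to 44 was at 0, 0.650, 0.650, 1.18 and 0.924 TMM CPM, or 0.681 ± 0.441 TMM CPM (SD, n = 5). UL 31 was the highest library, and apart from the absence of reads in UL 27 and ULU 40 the diets overlapped. For ENSSSCG00000018062, UL against control gave log2(fold change) 0.34, SE 0.68, edgeR adjusted p = 0.900, above the control median in 4 of 6 UL libraries. For ENSSSCG00000018062, ULU against control gave log2(fold change) -0.17, SE 0.72, edgeR adjusted p = 0.925, below the control median in 3 of 5 ULU libraries. Between ULU and UL the ENSSSCG00000018062 value was log2(fold change) -0.51, SE 0.72, edgeR adjusted p = 0.862, below the UL median in 4 of 5 ULU libraries. Without UL 31 the first value was -0.03, and without control 25 or ULU 40 that of ULU against control was 0.09 or 0.16.

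ENSSSCG00000018073 lies at MT 6379 to 6444, minus strand. In control, ENSSSCG00000018073 had 0.829 ± 0.667 TMM CPM (SD, n = 6), with lowest 0.243, median 0.594, highest 1.89. In UL, ENSSSCG00000018073 had 0.443 ± 0.300 TMM CPM (SD, n = 6), with lowest 0, median 0.380, highest 0.845. ENSSSCG00000018073 stood at 0, 0.520, 0.520, 0.197 and 0.0973 TMM CPM in ULU libraries 40 to 44, in that order, and at 0.267 ± 0.241 TMM CPM (SD, n = 5) on average. Control 25 and 24 were highest, and the other libraries of all diets lay in one range, with 0 in UL 27 and ULU 40. For ENSSSCG00000018073, UL against control gave log2(fold change) -0.91, SE 0.69, edgeR adjusted p = 0.686, below the control median in 4 of 6 UL libraries. For ENSSSCG00000018073, ULU against control gave log2(fold change) -1.65, SE 0.77, edgeR adjusted p = 0.250, below the control median in 5 of 5 ULU libraries. Between ULU and UL the ENSSSCG00000018073 value was log2(fold change) -0.74, SE 0.79, edgeR adjusted p = 0.807, below the UL median in 3 of 5 ULU libraries. The log2(fold change) of ENSSSCG00000018062 without UL 27 and ULU 40 was 0.61 in UL and 0.16 in ULU against control, and that of ENSSSCG00000018073 -0.65 and -1.32. Without control 24 and 25 the control level of ENSSSCG00000018073 was 0.429 ± 0.236 TMM CPM (SD, n = 4), near the UL mean, and the gene was below the filter, so that no log2(fold change) was fitted.

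**Figure D4:**
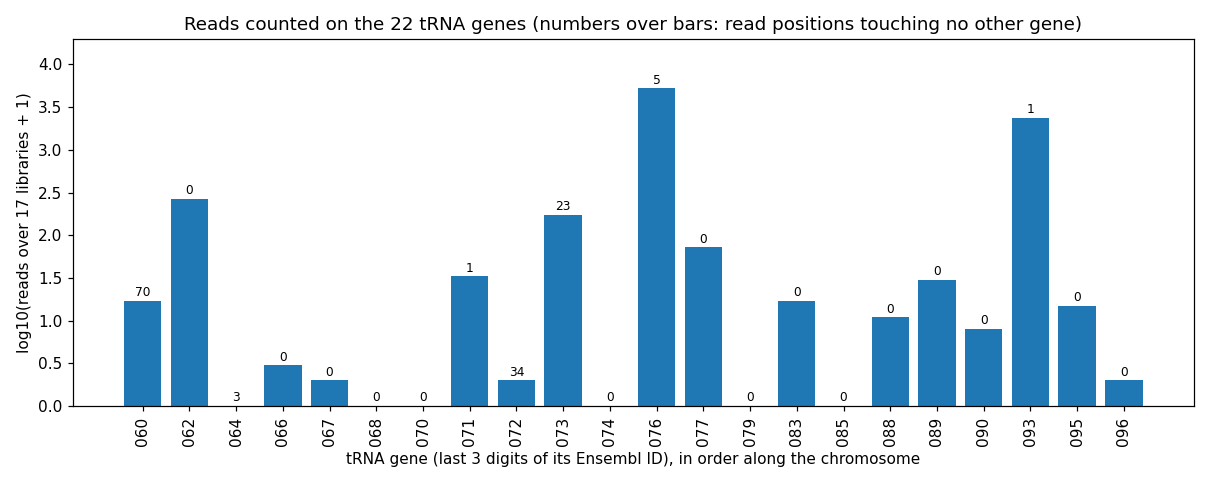
Reads over 17 libraries on each of the 22 tRNA genes, as log10(reads + 1), in order along the chromosome, with the number of read positions that touch no other gene above each bar. Most of the 8290 reads are on 2 genes, and 6 genes have none.

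In UL against control, 12 of 13 protein genes had a negative log2(fold change), all except ND3, with a median of -0.35, and with library size alone 13 of 13 did, with a median of -0.42. Without UL 27 and ULU 40 the median was -0.26, and without control 24 and 25 -0.31, with 12 of 13 negative in each case. Of all genes 50.5% had a negative value with TMM. Relative to the median of all genes the protein genes stood at -0.35 with TMM and -0.34 with library size alone. Apart from COX1, ATP8 and ND4L, values ran from -0.40 in ND5 to 0.06 in ND3. edgeR called 0 of the 19 mitochondrial genes tested, against 0 of 14203 genes or 0.0% in all. DESeq2 on all libraries called 0 of 17 mitochondrial genes, against 153 of 9256 genes in all (1.65%), and on these 2 diets 1 of 17, ND4L, against 148 of 9992 genes in all (1.48%). At an unadjusted p under 0.05 there were 6, against 10.8% of all genes, with ND4L, COX1, ND5, CYTB and COX2 lower and ENSSSCG00000018093 higher in UL. Their number was 3 without UL 27, 3 without control 25 and 11 with library size alone. The 10.8% belongs to the fit with TMM and all libraries. The share of all genes was not taken in these other settings, so their numbers cannot be set against it. No mitochondrial gene was lower in every UL than in every control library in TMM CPM, against 0.359% of all genes, and 1, ND4L, was so in raw CPM, against 0.366%.

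In ULU against control, 11 of 13 protein genes had a negative log2(fold change), all except ND4 and ND6, with a median of -0.31, and with library size alone 13 of 13 did, with a median of -0.49. The median was -0.15 without UL 27 and ULU 40 and -0.26 without control 24 and 25, with 11 of 13 negative in each case. Negative values made up 53.0% of all genes with TMM. Relative to the median of all genes, the protein gene median was -0.28 with TMM and -0.28 with library size alone. Apart from COX1, ATP8 and ND3, the values ran from -0.39 in COX2 to 0.07 in ND4. Again edgeR called 0 of 19 mitochondrial genes, against 423 of 14203 or 2.98% of all genes. Of those 423, 282 were higher in ULU with TMM, whereas 65 of 416 were with library size alone. With library size alone 4 of 19 mitochondrial genes were called, against 2.93% of all genes, COX2 at log2(fold change) -0.57, COX3 at -0.53, ND3 at -0.60 and the shorter rRNA at -1.01. DESeq2 called 1 of 17 on all libraries, the shorter rRNA, against 1067 of 11745 genes in all (9.08%), and 3 of 17 on these 2 diets, both rRNAs and ND3, against 826 of 11296 genes in all (7.31%). At an unadjusted p under 0.05 edgeR had 7, against 18.9% of all genes, with both rRNAs, COX1, COX2, ND3 and ENSSSCG00000018073 lower and ENSSSCG00000018093 higher in ULU. This number was 3 without ULU 40, 4 without ULU 44, 12 without ULU 43 and 13 with library size alone. Here too the 18.9% belongs to the fit with TMM and all libraries, and the share of all genes was not taken in the other settings. ND3 was the 1 mitochondrial gene lower in every ULU than in every control library in TMM CPM, against 1.09% of all genes. In raw CPM there were 5, the longer rRNA, COX3, COX2, ND3 and ATP8, against 2.3%.

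In ULU against UL, both rRNAs were lower in ULU under every scaling tried, with a median of -0.89 with TMM. Of 13 protein genes 9 had a positive log2(fold change), against 6669 of 14203 genes in all, with a median of 0.05, but with library size alone 6 did and the median was -0.07. Leaving out UL 27 and ULU 40 gave a median of 0.11 and leaving out control 24 and 25 0.05. Relative to all genes the medians with TMM and with library size alone were 0.07 and 0.05. Apart from COX1, ATP8, ND3 and ND4, the range was -0.07 in COX3 to 0.28 in ND6. Here too edgeR called 0 of 19 mitochondrial genes, against 5 of 14203 or 0.0352% of all genes. The shorter rRNA was the gene called by DESeq2, 1 of 15 on all libraries, against 248 of 2780 genes in all (8.92%), and 1 of 16 on these 2 diets, against 231 of 6020 genes in all (3.84%). At an unadjusted p under 0.05 there were 4, against 10.8% of all genes, with both rRNAs and ND3 lower and ND4 higher in ULU. The shorter rRNA was the 1 gene of the chromosome lower in every ULU than in every UL library in TMM CPM, against 0.662% of all genes. The comparisons share libraries and are not independent of each other.

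**Figure D5:**
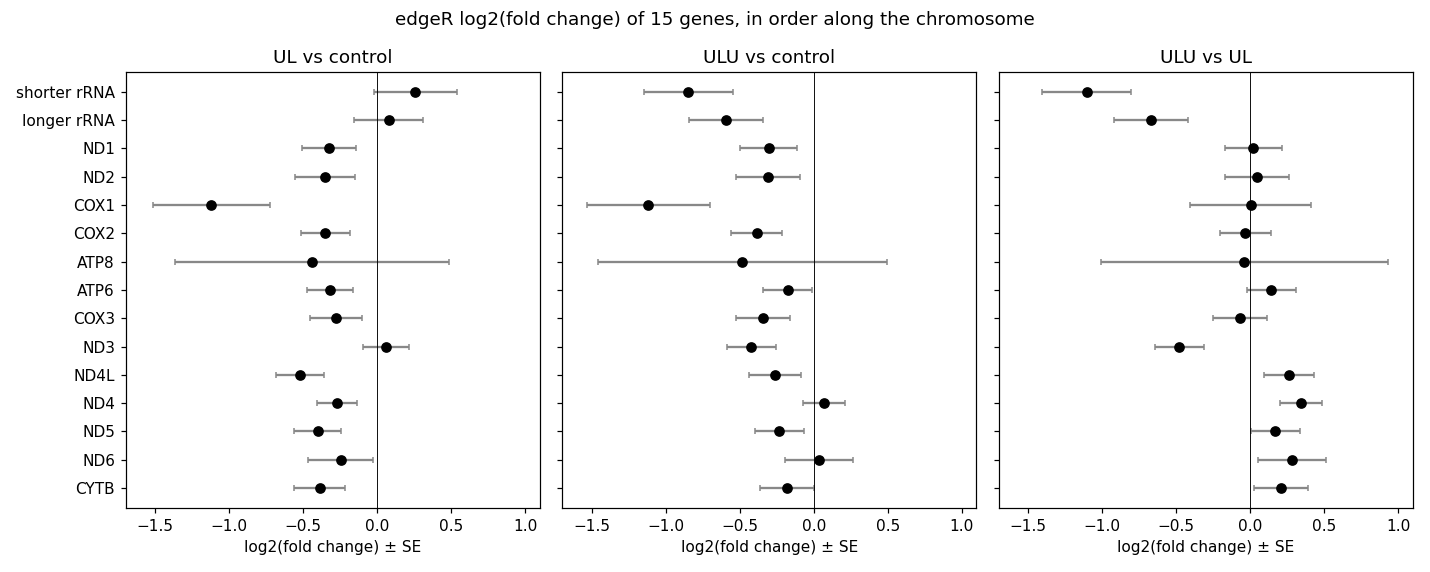
edgeR log2(fold change) of the 13 protein genes and 2 rRNA genes in the 3 comparisons, in order along the chromosome, with the standard error as a bar. Most protein genes lie left of 0 in UL and in ULU against control (13 of 13 with library size alone), and both rRNAs lie left of 0 in both comparisons of ULU.

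For the mitochondrial genes in which libraries stood apart, the genes elsewhere in the genome with the most similar levels were sought among 8110 genes with a mean count of at least 100, by Pearson's r of log2(CPM + 0.5), as a description with no test. Because the genes were picked as the extremes of 8110, values far from 0 are expected by chance, and the values without some libraries come from libraries also used for the picking. The genes most like ATP8 over n = 17 libraries were DEF8 at r = 0.857, RFTN1 at r = 0.838 and ATOSA at r = 0.822, and the most opposite were JMJD6 at r = -0.837, HNRNPA2B1 at r = -0.829 and SNRPA1 at r = -0.818. Without UL 27 and ULU 40 these values were -0.398, 0.285, 0.0930 and -0.532, 0.134, 0.458, in that order, over n = 15. All of these values for ATP8 were weaker without those libraries, and 3 changed sign. Nuclear genes most like COX1 over n = 17 libraries were BET1 at r = 0.828, ABHD17B at r = 0.771 and CCDC14 at r = 0.753, and the most opposite were AMMECR1 at r = -0.855, PTPN1 at r = -0.832 and PLA2G7 at r = -0.769. Without control 24 these values were 0.782, 0.750, 0.443 and -0.714, -0.635, -0.670, in that order, over n = 16.

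The genes most like ENSSSCG00000018076 over n = 17 libraries were UROS at r = 0.756, SEC61B at r = 0.740 and RPIA at r = 0.731, and the most opposite were PLAGL1 at r = -0.781, SOCS6 at r = -0.737 and ZNF12 at r = -0.737. Without control 24, control 25 and ULU 40 these values were 0.507, 0.731, 0.346 and -0.693, -0.480, -0.547, in that order, over n = 14. Closest to ENSSSCG00000018062 over n = 17 libraries were PLVAP at r = 0.769, KIAA2013 at r = 0.712 and ENSSSCG00000045539 at r = 0.701, and the most opposite were RRM1 at r = -0.777, PAAF1 at r = -0.764 and MIS12 at r = -0.738. Without UL 27 and ULU 40 these values were 0.523, 0.648, 0.703 and -0.780, -0.530, -0.641, in that order, over n = 15. Most similar to ENSSSCG00000018073 over n = 17 libraries were DNAJB6 at r = 0.787, MYLIP at r = 0.781 and TRAM1 at r = 0.781, and the most opposite were ENSSSCG00000035213 at r = -0.814, PRPF19 at r = -0.809 and MRS2 at r = -0.779. Without control 25, UL 27 and ULU 40 these values were 0.782, 0.717, 0.768 and -0.774, -0.761, -0.711, in that order, over n = 14.

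Nuclear genes that serve the mitochondrial chromosome and its products were described by 8 lists with 151 genes tested. In UL against control edgeR called 0 of them, 33 had an unadjusted p under 0.05, against 10.8% of all genes, and DESeq2 on all libraries called 4 of 147, against 1.65% of all genes. In ULU against control edgeR called 7 of 151, all of them higher in ULU, against 2.98% of all genes, and DESeq2 13 of 149, against 9.08%. In that comparison 36 had an unadjusted p under 0.05, against 18.9% of all genes. In ULU against UL edgeR called 0, with 21 at an unadjusted p under 0.05, against 10.8% of all genes, and 0 of 97 called by DESeq2, against 8.92%. With library size alone, or without UL 27 and ULU 40, fewer of these genes were called in ULU against control, as given for each list. Without control 24 alone, 1 of the 7, NDUFA10, was still called, with 1.54% of all genes called.

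Genes that transcribe and copy mitochondrial DNA had a positive log2(fold change) in 6 of 13 genes in UL against control, 8 of 13 in ULU against control and 9 of 13 in ULU against UL, and with library size alone in 1 of 13 in ULU against control. The genes with the smallest p, none called, were MTERF1 in UL against control (log2(fold change) -0.28, SE 0.13), TFAM in ULU against control (log2(fold change) 0.36, SE 0.13) and TFAM in ULU against UL (log2(fold change) 0.34, SE 0.13), of which TFAM packs this DNA and starts its transcription and MTERF1 ends transcripts. Genes that process or stabilise mitochondrial RNA had positive values in 12 of 19 genes in UL against control, 11 of 19 in ULU against control and 12 of 19 in ULU against UL, and with library size alone in 4 of 19 in ULU against control. FASTK, whose mitochondrial form is needed for ND6 mRNA, rose in ULU against control (log2(fold change) 0.46, SE 0.12, edgeR adjusted p = 0.0397, above the control median in 5 of 5 ULU libraries). PTCD2, which takes part in the maturation of CYTB mRNA, rose as well (log2(fold change) 0.37, SE 0.09, edgeR adjusted p = 0.0439, above the control median in 5 of 5 ULU libraries). Neither was called with library size alone, without UL 27 and ULU 40 or without control 24, and FASTK was not called without control 24 and 25 either. The smallest p elsewhere were those of SLIRP in UL against control (log2(fold change) 0.62, SE 0.15) and FASTK in ULU against UL (log2(fold change) 0.33, SE 0.12), of which SLIRP keeps mitochondrial mRNAs stable with LRPPRC.

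Nuclear partners of ND1 to ND6 and ND4L in complex I had positive values in 25 of 27 genes in UL against control, 27 of 27 in ULU against control and 14 of 27 in ULU against UL, and with library size alone in 18 of 27 in ULU against control, while most of the mitochondrial subunits were negative against control. Those that rose in ULU against control were NDUFA10 (log2(fold change) 0.55, SE 0.12, edgeR adjusted p = 0.0232, above the control median in 5 of 5 ULU libraries), NDUFB10 (log2(fold change) 0.57, SE 0.14) and NDUFV1, which binds NADH (log2(fold change) 0.60, SE 0.14). Without UL 27 and ULU 40, 2 complex I genes were called, without control 24 and 25 it was 4, and with library size alone 0, against 1.27%, 3.99% and 2.93% of all genes. The smallest p in UL against control, not called, was that of NDUFB10 (log2(fold change) 0.46, SE 0.13). Complex II has no mitochondrially encoded subunit. Its genes had positive values in 2 of 4 genes in UL against control, 4 of 4 in ULU against control and 4 of 4 in ULU against UL, and with library size alone in 4 of 4 in ULU against control, and SDHA, its flavoprotein, rose in ULU against control (log2(fold change) 0.45, SE 0.11, edgeR adjusted p = 0.0423, above the control median in 5 of 5 ULU libraries), but was called neither with library size alone nor without either pair of libraries. The smallest p elsewhere in complex II were those of SDHB in UL against control (log2(fold change) 0.19, SE 0.12) and SDHA in ULU against UL (log2(fold change) 0.32, SE 0.11).

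Nuclear partners of CYTB in complex III had positive values in 6 of 7 genes in UL against control, 6 of 7 in ULU against control and 3 of 7 in ULU against UL, and with library size alone in 3 of 7 in ULU against control. The genes of complex III with the smallest p, none called, were UQCR10 in UL against control (log2(fold change) 0.44, SE 0.18), UQCRC1 in ULU against control (log2(fold change) 0.31, SE 0.14) and UQCRC2 in ULU against UL (log2(fold change) 0.28, SE 0.13). Nuclear partners of COX1, COX2 and COX3 in complex IV had positive values in 9 of 10 genes in UL against control, 5 of 10 in ULU against control and 1 of 10 in ULU against UL, and with library size alone in 3 of 10 in ULU against control. Those with the smallest p, none called, were COX8A in UL against control (log2(fold change) 0.31, SE 0.10), COX5A in ULU against control (log2(fold change) 0.44, SE 0.14) and COX7C in ULU against UL (log2(fold change) -0.36, SE 0.15). Without control 24 and 25, 1 of 10 genes of complex IV was called in ULU against control, against 3.99% of all genes. Nuclear partners of ATP6 and ATP8 in complex V had positive values in 8 of 9 genes in UL against control, 9 of 9 in ULU against control and 6 of 9 in ULU against UL, and with library size alone in 8 of 9 in ULU against control. Their smallest p, none called, were those of ATP5ME in UL against control (log2(fold change) 0.68, SE 0.20), ATP5F1A in ULU against control (log2(fold change) 0.38, SE 0.12) and ATP5PB in ULU against UL (log2(fold change) 0.23, SE 0.10).

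Proteins that join the rRNAs in the mitochondrial ribosome had positive values in 52 of 62 genes in UL against control, 54 of 62 in ULU against control and 41 of 62 in ULU against UL, and with library size alone in 43 of 62 in ULU against control, while both rRNAs were negative in ULU against control and UL. MRPL12 rose in ULU against control (log2(fold change) 0.53, SE 0.14, edgeR adjusted p = 0.0498, above the control median in 5 of 5 ULU libraries), and was called neither with library size alone, nor with library sizes and TMM from genes outside the chromosome, nor without UL 27 and ULU 40. The smallest p elsewhere were those of MRPS9 in UL against control (log2(fold change) 0.51, SE 0.13) and MRPL57 in ULU against UL (log2(fold change) -0.66, SE 0.17). UL 27 and ULU 40, the lowest of their diets in most mitochondrial protein genes, were the highest of their diets in the summed ribosomal proteins, at 2900.4 and 2958 summed TMM CPM against diet medians of 2473 and 2566.

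ACTA1, skeletal muscle actin, was at 67349 ± 13249 TMM CPM (SD, n = 6) in control, 79953 ± 11024 TMM CPM (SD, n = 6) in UL and 104742 ± 28727 TMM CPM (SD, n = 5) in ULU. CKM, muscle creatine kinase, was at 17169 ± 3880.1 TMM CPM (SD, n = 6) in control, 21271 ± 4227 TMM CPM (SD, n = 6) in UL and 25201 ± 6788 TMM CPM (SD, n = 5) in ULU. Both are abundant, as the tissue label requires, and in both the means of UL and ULU were above that of control while the diets overlapped. Fibre types and other cells differ in mitochondrial content, so the summed TMM CPM of 7 marker lists is set beside the mitochondrial genes, and their part in the mitochondrial values was not tested. Of 37 marker genes tested, edgeR called 0 in UL against control, 6 in ULU against control, all of them higher in ULU, against 2.98% of all genes, and 0 in ULU against UL. At an unadjusted p under 0.05 there were 10 in UL against control, 16 in ULU against control and 3 in ULU against UL, against 10.8%, 18.9% and 10.8% of all genes. DESeq2 on all libraries called 1 of 32 markers in UL against control, 7 of 36 in ULU against control and 2 of 21 in ULU against UL, against 1.65%, 9.08% and 8.92% of all genes. Slow fibre markers (6 of 8 found, MYL2 the most abundant) summed to 3887 ± 1333 in control (lowest 2602, median 3554, highest 6012), 5934 ± 1498 in UL (lowest 4327, median 5766, highest 8409) and 6739 ± 2363 in ULU (8030.4, 10276, 5164, 4673 and 5552 in 40 to 44), mean ± SD of n = 6, 6 and 5. The slow troponins TNNT1 (log2(fold change) 1.30, SE 0.27, edgeR adjusted p = 0.0178, above the control median in 5 of 5 ULU libraries) and TNNI1 (log2(fold change) 0.92, SE 0.23) rose in ULU against control. Neither was called without UL 27 and ULU 40, and with library size alone 1 of 6 slow markers was, against 2.93% of all genes.

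Fast fibre markers (6 of 8 found, MYH2 the most abundant) summed to 50844 ± 9157 in control (lowest 38912, median 49413, highest 64229.5), 64489.9 ± 6229.9 in UL (lowest 55692, median 65474, highest 71932) and 74615 ± 10837 in ULU (78287, 74936, 59381, 89206 and 71267 in 40 to 44), mean ± SD of n = 6, 6 and 5. ACTN3 (log2(fold change) 0.71, SE 0.14, edgeR adjusted p = 0.0128, above the control median in 5 of 5 ULU libraries), MYH2 (log2(fold change) 0.53, SE 0.13), TNNT3 (log2(fold change) 0.66, SE 0.15) and ATP2A1 (log2(fold change) 0.65, SE 0.14) rose in ULU against control, and 3 of 6 fast markers were called with library size alone, against 2.93% of all genes, and 2 without UL 27 and ULU 40, against 1.27%. Slow and fast markers had positive values in 6 of 6 genes each in both comparisons with control, where the mitochondrial share was lower, and in ULU against control also with library size alone. In both sums the diets overlapped, and ULU 43, the ULU library with the highest mitochondrial share, was the highest of all libraries in fast markers and the lowest of ULU in slow markers. Its rank in fast markers holds in TMM CPM, with its factor of 0.765, and not in raw CPM, where ULU 40 was higher. The other smallest p were those of TNNT1 in UL against control (log2(fold change) 0.95, SE 0.26) and TNNI1 in ULU against UL (log2(fold change) 0.30, SE 0.23) and, among fast markers, of TNNI2 in UL against control (log2(fold change) 0.56, SE 0.19) and ACTN3 in ULU against UL (log2(fold change) 0.46, SE 0.14).

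Adipocyte markers (6 of 6 found, LPL the most abundant) summed to 434 ± 280.1 in control (lowest 204, median 343, highest 988), 284 ± 91.7 in UL (lowest 197, median 259.6, highest 412) and 249 ± 77.2 in ULU (200.1, 354, 160.2, 297 and 235 in 40 to 44), mean ± SD of n = 6, 6 and 5. Control 24, the library with the highest COX1, was the highest of all, and the smallest p, none called, were those of PLIN1 in UL against control (log2(fold change) -1.48, SE 0.76), FABP4 in ULU against control (log2(fold change) -1.10, SE 0.43) and FABP4 in ULU against UL (log2(fold change) -0.42, SE 0.43). Without control 24 the log2(fold change) of PLIN1 in UL against control was -0.68 and that of FABP4 in ULU against control -0.54, and without UL 27 and ULU 40 that of FABP4 in ULU against UL was -0.14. Fibroblast markers (5 of 5 found, COL3A1 the most abundant) summed to 5078 ± 1199 in control (lowest 2639.7, median 5532, highest 5724), 4543 ± 1167 in UL (lowest 3309.7, median 4369, highest 6458) and 4118 ± 1257 in ULU (4558, 4153, 5724, 2248 and 3907 in 40 to 44), mean ± SD of n = 6, 6 and 5. Control 25 and ULU 43, high in most mitochondrial protein genes, were the lowest of their diets, and the smallest p, none called, were those of PDGFRA in UL against control (log2(fold change) -0.32, SE 0.16), LUM in ULU against control (log2(fold change) -0.52, SE 0.20) and DCN in ULU against UL (log2(fold change) -0.31, SE 0.20). Macrophage and leukocyte markers (7 of 7 found, PTPRC the most abundant) summed to 95.4 ± 44.6 in control (lowest 44.0, median 94.4, highest 161), 75.4 ± 26.6 in UL (lowest 51.7, median 62.5, highest 111) and 62.6 ± 50.7 in ULU (39.6, 65.6, 149, 23.7 and 35.1 in 40 to 44), mean ± SD of n = 6, 6 and 5. ULU 43 was the lowest library, and the smallest p, none called, were those of PTPRC in UL against control (log2(fold change) -0.54, SE 0.40), PTPRC in ULU against control (log2(fold change) -1.04, SE 0.43) and CD3E in ULU against UL (log2(fold change) -1.07, SE 0.55).

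Endothelial markers (5 of 6 found, PECAM1 the most abundant) summed to 139 ± 21.7 in control (lowest 99.9, median 146, highest 161), 155 ± 53.8 in UL (lowest 88.0, median 149.7, highest 252) and 136 ± 29.9 in ULU (137, 181, 103.6, 116 and 144 in 40 to 44), mean ± SD of n = 6, 6 and 5. UL 32, the UL library with the highest mitochondrial share, was the highest, and the smallest p, none called, were those of CDH5 in UL against control (log2(fold change) 0.38, SE 0.20), TEK in ULU against control (log2(fold change) -0.38, SE 0.20) and PECAM1 in ULU against UL (log2(fold change) -0.30, SE 0.22). Red blood cell markers (4 of 6 found, HBB the most abundant) summed to 43.8 ± 14.5 in control (lowest 19.9, median 44.4, highest 64.1), 61.5 ± 21.3 in UL (lowest 35.8, median 66.8, highest 90.9) and 56.9 ± 15.4 in ULU (73.3, 61.8, 66.1, 34.3 and 49.1 in 40 to 44), mean ± SD of n = 6, 6 and 5. Among these genes the smallest p, none called, were those of HBB in UL against control (log2(fold change) 0.50, SE 0.26), HBB in ULU against control (log2(fold change) 0.37, SE 0.27) and ALAS2 in ULU against UL (log2(fold change) 0.28, SE 0.40). Without control 24 and 25, 1 fibroblast marker and 1 leukocyte marker were called lower in ULU than in control, against 3.99% of all genes. In that setting 2 fast markers and the slow markers TNNT1 and TNNI1 were called as well. The diets overlapped in each of these sums. Of the 6 markers called in ULU against control, 3, TNNT1, ACTN3 and TNNT3, were still called without control 24 alone, with 1.54% of all genes called. None of the markers found was at 0 in all libraries, and LEP and SLC4A1 were below the filter on low counts.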

How the data were processed

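The authors deposited raw counts per gene for 17 libraries. Their header names featureCounts 2.0.1 and Ensembl annotation 104 (Sscrofa11.1) and sets no option for strand, multiple sites or multiple genes. The submitters' processing notes name fastp, HISAT2 and Subread 1.5.1.

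Software comprised R 4.3.3 with edgeR 4.0.16 and, as an alternative, DESeq2 1.42.0, besides Python 3.11.15, scipy 1.17.1 and pandas 2.3.3. All genes entered 1 model of 3 diets (TMM, filterByExpr, quasi-likelihood F test, Benjamini-Hochberg over 14203 genes). Standard errors are the absolute log2(fold change) divided by the square root of F. Raw CPM takes the number of counted reads as the library size. A read position is a 75-base window, counted for a gene when it touches no other gene. Shorter reads were not modelled. The code was tested on simulated data. No pair of libraries had identical counts. A names table gave symbols for 15029 genes, and RefSeq gave the kinds of all 37 mitochondrial genes by exact start and end.

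Members and lists were chosen with earlier results of these data known. Levels are given for all protein genes, both rRNAs, the 3 tRNA genes with the highest mean count and any gene with a library standing apart (under 0.1 or over 3 times the median of its diet). Tests are given for both rRNAs, the 2 protein genes with the smallest p in each comparison, genes called and genes with a library standing apart. The genes named from lists are those called and, in most lists and comparisons, the one with the smallest p. Genes counted by name in the comparisons outside these rules were named after their values were seen, as were the ratios between genes, control 25 for COX1, medians and orders without libraries that stood apart, and the test of ND4L in ULU against control. Alternatives were other scalings, no filter, DESeq2, 2-diet fits, other denominators and rRNAs left out of the share, and each library left out in turn.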

Additional observations from a re-analysis of the deposited data

Results flagged for a closer look

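Of 69 groups of libraries examined, 7 held a library far from the others of its diet, by a gap to the nearest library, as a share of the range, above Dixon's critical value. Chance alone does this in about 1 in 20 groups. The shorter rRNA in UL 32 was at 5452 TMM CPM (gap 0.649 of the range). ENSSSCG00000018076 in ULU 40 was at 36.0 TMM CPM (gap 0.739). ATP8 was at 0.566 TMM CPM in UL 27 (gap 0.72) and at 0.437 TMM CPM in ULU 40 (gap 0.749). ND4L in ULU 43 was at 5928 TMM CPM (gap 0.784), a value raised by the TMM factor of this library, 0.765. In raw CPM it was below control 22 and 26, and its gap was not examined on that scale. ND6 in control 25 was at 1957 TMM CPM (gap 0.756), and ENSSSCG00000018093 in the same library at 8.29 TMM CPM (gap 0.776). The TMM factor of control 25 was 0.948, and neither gap was examined in raw CPM.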

How the results depend on the processing

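The count of mitochondrial genes called by edgeR was 0 in all 3 comparisons, also without any single library and under each setting added after seeing the data (without UL 27 and ULU 40, without control 24 and 25). Under DESeq2 on 2 diets it was 1 in UL against control, 3 in ULU against control and 1 in ULU against UL. Under DESeq2 on all libraries it was 1 in each comparison of ULU, and with library size alone 4 in ULU against control. All genes called went from 0 in UL against control to 153 and 148 with DESeq2 on all libraries and on 2 diets, 4 without control 24 and 25, 3 without UL 27 and ULU 40, 1 without control 24, 16 without control 25 and 1 without UL 27. They went from 423 in ULU against control to 1067 and 826 with DESeq2, 111 with edgeR on 2 diets, 228 without a filter, 183 without UL 27 and ULU 40, and 154, 164, 218, 799 and 210 without control 22, 23, 24, 25 and 26, and 170, 187, 147 and 252 without ULU 40, 41, 43 and 44. They went from 5 in ULU against UL to 248 and 231 with DESeq2, 1 with edgeR on 2 diets, 9 with library size alone, 8 without a filter, 3 without UL 27 and ULU 40, 2 without control 24 and 25, 2, 3, 3, 1 and 3 without UL 28 to 32, and 1, 1, 2 and 2 without ULU 40, 41, 42 and 44. The mitochondrial share was 14.551% to 14.917% in control, 10.999% to 12.223% in UL and 9.865% to 10.776% in ULU without 1 library. Left without rRNAs it was 12.03%, 8.789% and 8.593%, and against reads on other genes 17.338% in control. The median log2(fold change) of the protein genes went from -0.35 in UL and -0.31 in ULU against control to -0.26 and -0.15 without UL 27 and ULU 40. The sign of the log2(fold change) reversed as follows. In UL against control the shorter rRNA (range without 1 library -0.022 to 0.489) was -0.022 without UL 32. The longer rRNA (range without 1 library -0.096 to 0.216) was -0.014 with library size alone, -0.015 without UL 28, -0.096 without UL 32 and -0.031 without control 24 and 25. ENSSSCG00000018062 (range without 1 library -0.033 to 0.609) was -0.033 without UL 31, and ENSSSCG00000018076 (range without 1 library -0.738 to 0.407) was 0.407 without control 24 and 1.435 without control 24 and 25. In ULU against control ENSSSCG00000018062 (range without 1 library -0.466 to 0.163) was 0.085 without control 25 and 0.163 without ULU 40, with or without UL 27, and ENSSSCG00000018076 (range without 1 library -1.528 to 0.259) was 0.259 without control 24 and 1.289 without control 24 and 25. In ULU against UL COX1 (range without 1 library -0.119 to 0.169) was -0.103 with library size alone, -0.061, -0.098 and -0.021 without UL 27, 29 and 30, -0.119 and -0.062 without ULU 40 and 43, and -0.184 without UL 27 and ULU 40. ATP8 in that comparison (range without 1 library -0.305 to 0.28) was 0.017, 0.113 and 0.28 without UL 28, UL 32 and ULU 40, and 0.018 without UL 27 and ULU 40. There ENSSSCG00000018076 (range without 1 library -1.018 to 0.084) was 0.078, 0.035, 0.041 and 0.084 without UL 31, ULU 41, ULU 43 and ULU 44. The cause was not tested. ENSSSCG00000018073 passed the filter in 19 of these alternatives. For 17 of the 22 tRNA genes at most 1 read position touches no other gene, which limits what the tRNA counts can show. No paired analysis was possible because the diets share no replicate numbers.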
